A study of Cucumis sativus with 25 samples.

Results

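The degradome library of this cucumber study listed 5359 distinct tags, and 694 of them matched a transfer RNA (tRNA) record and no ribosomal RNA (rRNA) record. These 694 tags are the members described here. They were chosen from the RNA records that the deposited table lists beside each tag: at least 1 record had to be of the class tRNA, and none of the class rRNA. The choice did not use the copy numbers. The members held 3367 copies, where a copy is 1 sequencing read of a tag. The other listed tags comprised 2349 that matched rRNA, with 250815 copies, and 2316 that matched neither class, with 9215 copies.

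A degradome library collects the 5′ ends of RNAs that carry a free 5′ phosphate, the end left when an RNA is cut, and so each tag begins at a cut site or at a processed end. It came from shoot apical tissue of cucumber seedlings of the inbred line 9930, and RNA of 4 temperature and photoperiod treatments was mixed into 1 library. The treatments were HL (28 °C in 16 h of light and 25 °C in 8 h of dark), HS (28 °C in 8 h of light and 25 °C in 16 h of dark), LL (20 °C in 16 h of light and 15 °C in 8 h of dark) and LS (20 °C in 8 h of light and 15 °C in 16 h of dark). All plants were grown at the same humidity. The labelled tissue was not checked against marker genes, since the table lists only tags with an RNA record. With 1 pooled library there was no replicate and no comparison between treatments. The shares below therefore have no test, and the main ones are given with an exact binomial (Clopper-Pearson) 95% interval. Since PCR copies are not independent molecules, these intervals cover counting error only.

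Transfer RNAs carry amino acids to the ribosome and fold into a cloverleaf, whose anticodon loop reads the messenger RNA. They are transcribed as longer precursors. RNase P cuts the precursor at the first base of the tRNA and leaves a 5′ phosphate there. In the plastids of land plants, the genes for tRNA-Ile with anticodon GAU and tRNA-Ala with anticodon UGC lie side by side in the rRNA operon, and a group II intron interrupts each of them at the anticodon loop. In plastids, a poly(A) tail is known as a mark of RNAs on the way to degradation.

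The label of these tags was checked by joining them to each other and to other listed tags that overlapped them. Tags that shared words of 18 bases were joined into longer stretches, and 690 of the 694 tags, with 3362 of the 3367 copies (99.9%), fell on 4 stretches. A search of the stretches for tRNA parts, on both strands, found 2 pairs of parts whose acceptor stems (7 base pairs) and anticodon stems (5 base pairs) paired in full. The first pair decodes alanine and the second decodes isoleucine, and in both the anticodon loop ends the 5′ part and an intron follows it. Nearly all of the members' copies thus lay on 2 intron-bearing tRNA loci, tRNA-Ala(UGC) and tRNA-Ile(GAU), with 111 of the 690 placed tags on the strand opposite the tRNA. Of these 111, 7 lay on a stretch without a tRNA part, whose tRNA strand was assumed, as described below. No pair of parts for any other amino acid was found. The search found 4 candidate 5′ parts and 4 candidate 3′ parts, of which only these 2 pairs matched. It accepted a fixed layout with full stem pairing, so a tRNA of another layout would have been missed. The parts of each tRNA, joined without the intron, are printed here to show the 2 molecules (5′ to 3′, anticodon in capitals).
tRNA-Ala, 73 bases: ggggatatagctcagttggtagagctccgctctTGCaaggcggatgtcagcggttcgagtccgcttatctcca
tRNA-Ile, 72 bases: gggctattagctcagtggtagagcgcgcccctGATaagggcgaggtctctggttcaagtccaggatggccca

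The alanine tRNA lay on 1 stretch of 1015 bases. Its 5′ part took positions 1 to 38, counted from the first base of the tRNA, an intron of 802 bases followed, and the 3′ part took positions 841 to 875. The precursor from the first to the last base of the tRNA was therefore 875 bases long. Members covered 839 of the 1015 bases of this stretch, and no member reached past position 857, so that the end of the 3′ part came from listed tags outside the members. In the RefSeq gene table of the assembly Cucumber_9930_V3, the 2 plastid trnA genes are 875 and 876 bases long and the 2 plastid trnI genes 888 bases each. There, trnI lies between the small-subunit rRNA gene and trnA, and trnA between trnI and the large-subunit rRNA gene. Of the 665 tRNA genes in that table, 8 were at least 500 bases long and all 8 were plastid genes, whereas the longest tRNA gene outside the plastid had 96 bases. The isoleucine tRNA lay on 3 stretches that the tags did not bridge: a 5′ stretch of 723 bases with positions 1 to 37 as the 5′ part of the tRNA, a middle stretch of 142 bases, and a 3′ stretch of 89 bases with a 3′ part of 35 bases. All 69 tags of the middle stretch matched the same tRNA record that led the 5′ stretch, which is why it is counted with the isoleucine locus. The middle stretch holds no tRNA part, so its strand with more copies was taken as the tRNA strand.

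The most abundant sequences show where the cuts fell. The 12 members with the most copies all lay on the tRNA strand of the Ala stretch or of the Ile 5′ stretch. Capitals mark bases of the tRNA itself and lower case marks the intron.
Ala position 1, 467 copies: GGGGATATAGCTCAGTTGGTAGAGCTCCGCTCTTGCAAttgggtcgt
Ala position 39, 302 copies: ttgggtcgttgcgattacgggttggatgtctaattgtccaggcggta
Ile position 401, 214 copies: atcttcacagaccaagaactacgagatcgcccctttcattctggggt
Ile position 402, 193 copies: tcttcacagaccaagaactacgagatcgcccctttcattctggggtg
Ile position 265, 108 copies: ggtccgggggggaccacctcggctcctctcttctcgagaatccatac
Ile position 38, 102 copies: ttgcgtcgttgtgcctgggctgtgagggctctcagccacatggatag
Ile position 403, 88 copies: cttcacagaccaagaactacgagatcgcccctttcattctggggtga
Ile position 35, 81 copies: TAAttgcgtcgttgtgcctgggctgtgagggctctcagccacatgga
Ala position 38, 71 copies: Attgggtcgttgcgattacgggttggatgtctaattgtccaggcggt
Ile position 400, 60 copies: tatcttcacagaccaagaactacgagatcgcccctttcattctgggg
Ala position 134, 56 copies: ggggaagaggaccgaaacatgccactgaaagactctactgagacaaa
Ala position 203, 48 copies: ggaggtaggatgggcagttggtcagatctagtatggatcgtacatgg

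The leading tag is the first 38 bases of tRNA-Ala followed by the first bases of its intron. It alone held 13.9% of the tRNA copies (95% interval 12.7% to 15.1%). Of the 12 tags, 3 contain bases of a tRNA and 9 lie wholly in an intron. The tags at positions 400 to 403 of the Ile stretch are the same sequence begun 1 base apart.

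Among the members, the Ile locus held more copies than the Ala locus. The Ala stretch held 264 tags with 1453 copies, 43.2% of all tRNA copies, and the 3 Ile stretches together held 426 tags with 1909 copies, 56.7%. On the Ile side, the 5′ stretch held 344 tags with 1702 copies, the middle stretch 69 tags with 158 copies, and the 3′ stretch 13 tags with 49 copies. The remaining 4 tags, with 5 copies in all, could not be placed. The order of the loci rests on the choice of members: with all other listed tags that lay on the stretches without a difference, added after seeing the data, the Ala locus had 2110 copies and the Ile locus 2003. Many tags overlap, so they are not independent samples of a locus.

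On the Ala locus, cuts at the first base of the tRNA were the most frequent. On the tRNA strand, 474 of 1395 copies (34.0%, 95% interval 31.5% to 36.5%) began exactly at position 1, the site at which RNase P is known to cut. Before the tRNA, 18 copies (1.29%) began, 3 of them at the base directly before position 1. Within the 5′ part, from its second base up to the anticodon loop, 24 copies (1.72%) began, spread over 13 positions. The neighbouring bases thus had few copies beside the 474 at position 1, and the end there was a single base wide.

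**Figure D1:**
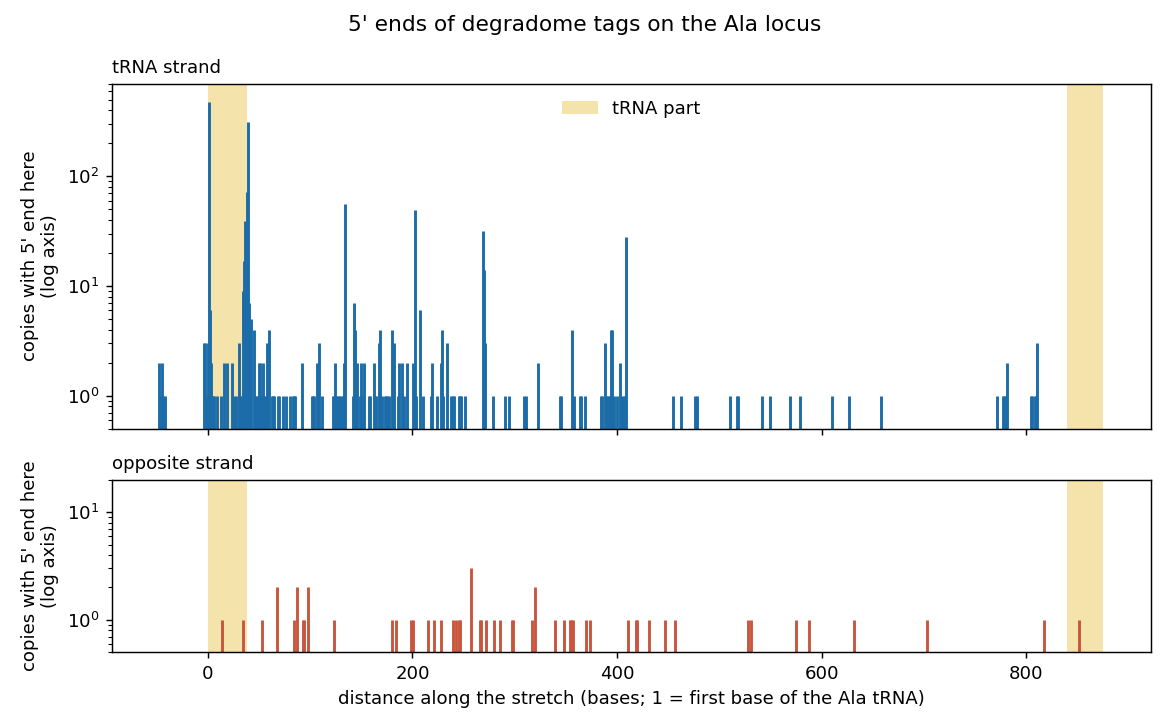
Copies of member tags by the position of their 5′ end on the Ala stretch, with the tRNA strand above and the opposite strand below, on log axes. Each line is 1 position, and the shaded bands are the 5′ and 3′ parts of tRNA-Ala. The tallest lines are at position 1 (474 copies) and position 39 (312 copies), at the 2 ends of the 5′ part, and no position on the opposite strand has more than 3 copies.

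The other leading site on the Ala locus was at the end of the anticodon loop, where the intron begins. At position 39, the first base after the loop, 312 copies (22.4%, 95% interval 20.2% to 24.6%) began. The loop itself, positions 32 to 38, held 157 copies (11.3%). Its last base, position 38, had 72 copies, position 37 had 18, position 36 had 39, position 35 had 17 and position 34 had 9. The first 2 loop positions had 1 copy each. Ends in the loop and at the base after it made up 469 copies, or 33.6% (95% interval 31.1% to 36.2%), close to the 474 copies at position 1.

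Further into the Ala intron, 410 copies (29.4%) began at 150 positions. Most of these positions held 1 or a few copies, and the sites with 10 or more copies were position 134 (56 copies), position 203 (49 copies), positions 269 and 270 (46 copies together) and position 409 (28 copies). On the tRNA strand, no member began in the 3′ part of the tRNA or beyond it. That end of the Ala stretch is thinly covered because of how members were chosen, as described below.

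The Ile locus also had ends in the anticodon loop and at the first base after it. At position 38, the first base after its loop, 104 of 1639 copies on the tRNA strand of the 5′ stretch (6.35%, 95% interval 5.21% to 7.64%) began. The loop, positions 31 to 37, held 164 copies (10.0%), with 15 at its last base, 40 at position 36 and 82 at position 35, which is the third base of the anticodon. Loop and following base together took 268 copies (16.4%, 95% interval 14.6% to 18.2%), a smaller share of member copies than on the Ala locus. The shares are not directly comparable, since the Ala stretch spans the whole gene and the Ile share rests on the 5′ stretch alone. The choice of members also left out more tRNA-strand copies of the Ala stretch (256, 134 and 222 by class) than of the Ile 5′ stretch (78 and 1). The sequences around the 2 sites are set side by side here, ending 23 bases into the intron, with tRNA bases in capitals. Of the first 20 intron bases, 13 were identical between the loci.
Ala: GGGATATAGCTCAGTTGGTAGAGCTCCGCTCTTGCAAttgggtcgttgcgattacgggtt
Ile: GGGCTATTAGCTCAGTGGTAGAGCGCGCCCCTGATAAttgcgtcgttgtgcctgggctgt

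**Figure D2:**
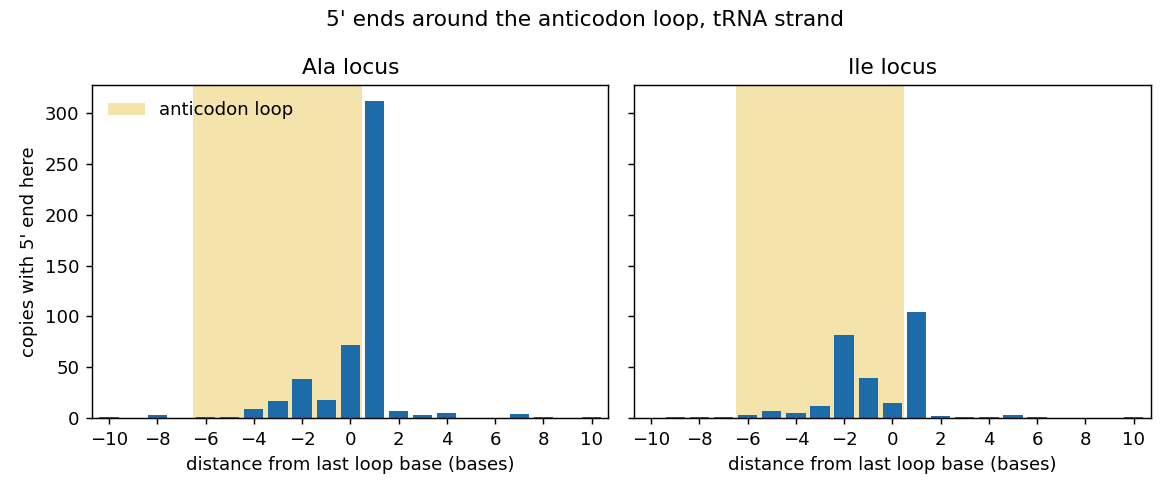
Copies by the position of their 5′ end around the last base of the anticodon loop (distance 0) on the tRNA strand, Ala locus left and Ile locus right, on 1 shared linear axis from 0. Bars are copies at 1 position and the shaded band is the 7-base loop. At distance 1, the first base after the loop, the bar is the tallest in both panels (312 and 104 copies), and the next tallest differ, at distance 0 in Ala (72 copies) and at distance -2 in Ile (82 copies).

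The boundary between tRNA and intron was set by the cloverleaf layout, in which the whole loop belongs to the 5′ part. It was not read from a spliced tag, since none was found. Tags that ran with at least 8 bases on each side from the 5′ part of tRNA-Ala into the intron held 497 copies on the tRNA strand, and tags with the 5′ and 3′ parts joined held 0, which against 497 allows a share of up to 0.604%. For tRNA-Ile the same counts were 22 and 0, which allows up to 13.6%. To appear in the table, a spliced tag would also have had to come from RNA kept by the poly(A) selection and to match a listed RNA record. Whether such tags were lost in either way was not tested. The limits given here therefore hold for the listed tags and are not limits on splicing.

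No tag began at the first base of tRNA-Ile. Among all listed tags of any class, 0 began between positions -5 and 6 on the tRNA strand, and against the 1639 copies of the stretch a count of 0 allows up to 0.183%. Tags carrying the leading record of the Ile locus were seen from position 7 onward, whereas those of the Ala locus reached back to position -4. Before the tRNA, 7 members with 10 copies began on the tRNA strand between positions -40 and -20 through other tRNA records, and 33 listed tags outside the members, with 42 copies, began between positions -165 and -17. Whether a tag cut at the first base of tRNA-Ile would have matched a listed record was not tested. The absence of listed tags therefore does not tell whether the RNA is cut there.

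The main site of the Ile locus lay deep in its intron. The 5 neighbouring positions from 400 to 404 held 591 copies, 36.1% of the tRNA-strand copies of the 5′ stretch. Position 401 had 218 copies, position 402 had 201, position 403 had 93, position 400 had 62 and position 404 had 17, so that this site was several bases wide where that at Ala position 1 was a single base. Its sequence is printed with these 5 positions in capitals.
Ile intron, 60 bases: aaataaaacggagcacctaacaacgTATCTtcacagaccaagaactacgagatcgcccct
A further site at position 265 had 112 copies. Smaller ones were at positions 382 and 383 (46 copies together), 418 (33 copies), 411 (26 copies), 251 (21 copies), 428 (15 copies) and 296 (11 copies). In all, 1339 copies (81.7%, 95% interval 79.7% to 83.5%) of the 5′ stretch began in the intron past its first base.

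**Figure D3:**
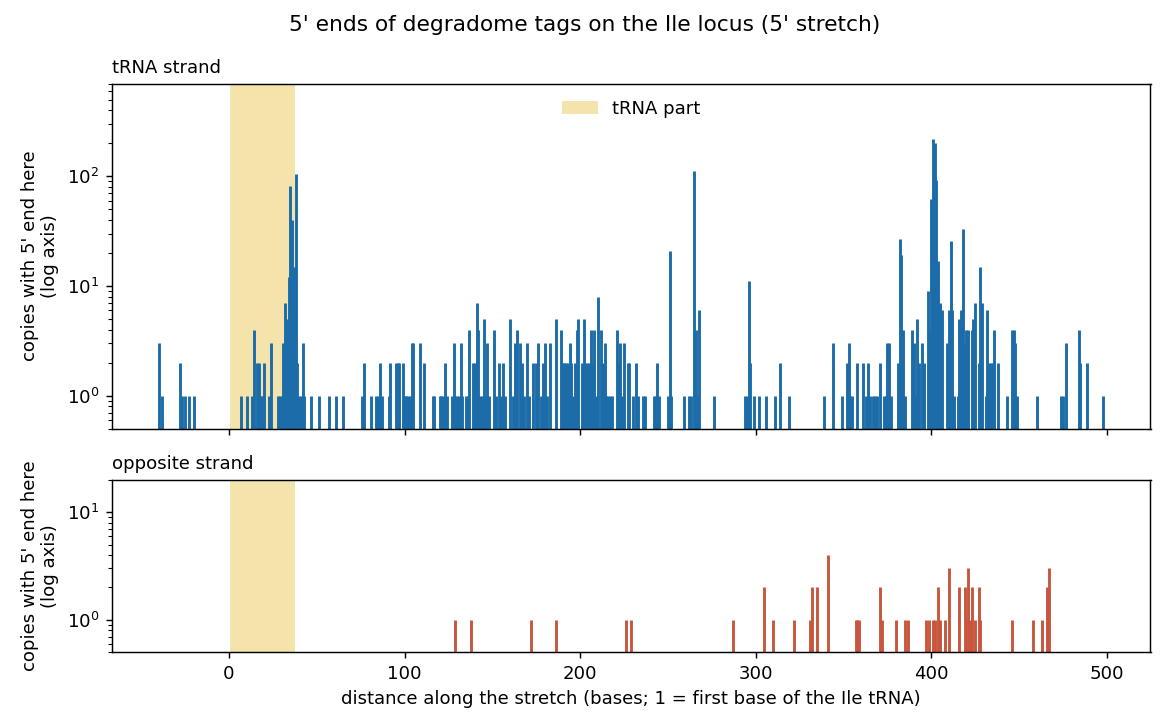
Copies of member tags by the position of their 5′ end on the Ile 5′ stretch, with the tRNA strand above and the opposite strand below, on log axes. Each line is 1 position and the shaded band is the 5′ part of tRNA-Ile. The tallest group of lines stands at positions 400 to 404 (591 copies), with others at position 265 (112 copies) and at the end of the shaded band (104 copies at position 38), and no line stands at position 1.

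The 3′ part of tRNA-Ile was reached by few members. On the 3′ stretch, 42 copies lay on the tRNA strand, of which 21 began exactly at the first base of the 3′ part, counted as position 1. A further 13 began at position -27, in the intron. The tag at the first base runs through the whole 3′ part, shown in capitals, and on past the end of the tRNA.
Ile 3′ part, 21 copies: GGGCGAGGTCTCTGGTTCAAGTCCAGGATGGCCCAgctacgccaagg
The bases that follow the tRNA, in lower case, do not begin with CCA, the triplet that is added to a tRNA once its 3′ end has been trimmed. On the middle stretch, the 150 copies of the strand taken as the tRNA strand were spread over 55 positions with at most 9 copies at any of them.

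Tags of the opposite strand held fewer copies each, on average, than those of the tRNA strand. Over the 4 stretches, 579 tags with 3226 copies lay on the tRNA strand, and 111 tags with 136 copies lay on the opposite strand, which is 4.05% of the placed copies (95% interval 3.40% to 4.77%) and 16.1% of the placed tags. Opposite-strand tags had 1.23 copies each on average, against 5.57 for tags on the tRNA strand, and 90 of the 111 had 1 copy. The share of opposite-strand copies was 3.99% on the Ala stretch and 3.70% on the Ile 5′ stretch. On the Ile middle stretch, the opposite strand is by choice the one with fewer copies. There it was 5.06% (7 tags with 8 of 158 copies, included in the totals above). It was 14.3% on the Ile 3′ stretch, where it rested on 7 of 49 copies, with an interval of 5.94% to 27.2%. On the Ala and Ile 5′ stretches, 55 of 58 and 63 of 63 opposite-strand copies had their 5′ end in the intron past its first base. These counts do not show that the strand avoids the tRNA. An opposite-strand tag has its 5′ end at its edge farther along the stretch. Such a tag of 47 bases can overlap the 5′ part and still have that end in the intron. Tags with the leading Ile record were seen only from position 7 onward, so their opposite-strand ends had to fall in the intron. No position on that strand had more than 4 copies. The sign given in the records did not separate these tags, since all 694 members, the 111 included, had a tRNA record with a plus sign.

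The copies were concentrated on few ends. Sites with 10 or more copies, counted as runs of neighbouring positions, numbered 17 on the tRNA strand. The 5 most used positions held 69.0% of the copies on the Ala stretch and 44.4% on the Ile 5′ stretch. By tags, the 10 most abundant members held 50.1% of the tRNA copies (95% interval 48.4% to 51.8%), against 93.6% in the rRNA tags and 22.5% in the tags that matched neither. A single rRNA tag with 200601 copies made up 80.0% of the rRNA copies. At the other end, 424 of the 694 members (61.1%) had 1 copy, against 61.7% of the rRNA tags and 67.4% of the rest. The median was 1 copy per tag in all 3 sets.

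**Figure D4:**
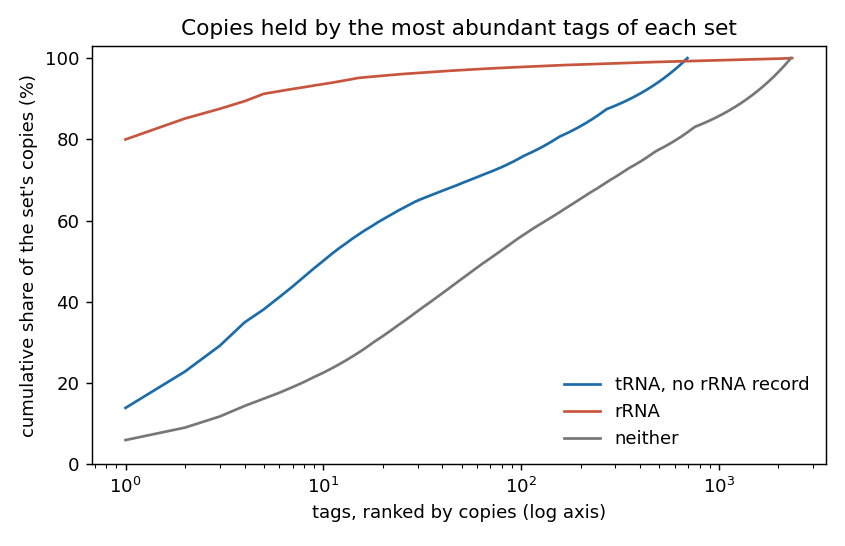
Cumulative share of copies (vertical axis, %) held by the tags of each set, ranked by copies (horizontal log axis): tRNA tags, rRNA tags and tags that matched neither. At 10 tags the tRNA line lies between the others, with 50.1% of its copies, against 93.6% for rRNA and 22.5% for neither.

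All tags of the table were 47 bases long. The members' median GC content was 51.1% (34.0% to 74.5%), against 59.6% in the rRNA tags and 46.8% in the rest. By copies, 31.3% of the members began with G (95% interval 29.7% to 32.9%), 31.2% with T, 22.3% with A and 15.2% with C. Among rRNA copies 84.7% began with C and 2.06% with G, and among the rest 32.4% began with A and 25.2% with G. The most abundant rRNA tag begins with C, and without it 23.8% of the rRNA copies began with C and 10.3% with G. By distinct tags, 32.9% of the rRNA tags began with C and 18.9% with G. By distinct tags the members were nearly even, with 25.4% beginning with G, 25.4% with T, 24.9% with A and 24.4% with C. The leading tag, which begins with G, set this share of copies to a large part, since 20.2% of the copies began with G without it.

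As a share of the listed library, the members were 1.28% of the copies (95% interval 1.24% to 1.32%) and 12.95% of the distinct tags (95% interval 12.1% to 13.9%), whereas rRNA tags were 95.2% of the copies and 43.8% of the tags. The table lists only tags with an RNA record, so that these are shares of the listed copies, not of all reads. A single rRNA tag held 200601 of the 263397 listed copies, so the share of copies depends strongly on that tag. The share without it was not computed. The members matched 23 distinct tRNA records, none of which names an amino acid, and a tag can match several. The leading record, of 794 bases, was matched by 393 tags with 1825 copies, 54.2% of the tRNA copies (95% interval 52.5% to 55.9%). The second, of 887 bases, was matched by 240 tags with 1379 copies, 41.0%. No tag matched both, and together they covered 95.2% of the tRNA copies. Of the 393 tags with the first record, 392 lay on the Ile stretches, and all 240 with the second lay on the Ala stretch. The other records with at least 1% of the copies had 1700 bases (36.6%), 704 bases (31.7%), 376 bases (17.7%) and 750 bases (10.3%), and the 17 remaining records were matched by under 10 tags each. Only 9 tags with 13 copies rested on those alone.

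Some tags of the same 2 loci fell outside the members because of the records they matched. In all, 245 listed tags with 751 copies that were not members lay without a difference on the Ala stretch or the Ile 5′ stretch. On the tRNA strand of the Ala stretch, 77 tags with 222 copies matched both tRNA and rRNA and began between positions 410 and 832, just where the members thin out after position 409. Another 13 tags with 134 copies there matched rRNA without tRNA, and 90 of these copies began at position 844, in the 3′ part of tRNA-Ala. Tags that matched neither class numbered 56 with 256 copies, of which 96 began at position 877 and 51 at position 880, just after the tRNA ends at position 875. The members therefore describe the 5′ part and the first stretch of the intron of the Ala locus better than its 3′ part. Of the study's mature miRNA sequences, 249 were searched, and none had an exact match within a member tag or a joined stretch on either strand. A target site with mismatches would have been missed, and a tag begun at a cut inside a site holds only part of it. The search therefore does not tell whether a miRNA targets these RNAs.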

How the data were processed

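The authors selected poly(A) RNA, ligated an adapter to 5′ phosphate ends and sequenced 1 degradome library from the mixed treatments. The deposited table gives, for each tag, its count of reads as a whole number with no normalization, and the RNA records it matched. The program, the allowed mismatches and the database behind these records are not given in the sources used here. The file lists only matching tags, so its total of 263397 copies is not the depth of the library. The tables of gene expression and of miRNAs were not used, except for the mature miRNA sequences.

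Tags were read in Python (3.11.15) and joined through shared words of 18 bases, starting from the most abundant member. Listed tags of all classes could extend a stretch. Members were then placed with at most 3 differences on either strand, and 96.6% of the placed copies had none. The stretches were searched for 5′ and 3′ tRNA parts by stem pairing, and anticodons were decoded with the standard code (Biopython 1.88). Joining, placement and search were tested on simulated tags of a made-up locus, evenly covered on both strands, with a tRNA of the searched layout. The simulation held neither similar loci nor gaps in coverage, both of which these data have. No plastid genome sequence was used, so positions are given along the joined stretches and not along a chromosome. The main shares have exact binomial 95% intervals (scipy 1.17.1), and a count of 0 is given with the share that 3 copies would make.

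The tags named are the 12 with the most copies and the leading tag of each of the 5 leading records, which were all among the 12. The records name no amino acid, so tags were grouped by record. The tag printed from the Ile 3′ part and the sites described in the introns were chosen after their values were seen. The members and lists were chosen with earlier results of these data known.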

Additional observations from a re-analysis of the deposited data

How the results depend on the processing

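Of the 25 values recomputed for 5 shares under 5 alternatives, 11 stayed within the 95% interval of the reported value and 14 did not. With the tags that also match rRNA kept, the tRNA share was 1.38% of copies and 14.98% of tags, the 10 leading tags held 46.5% and the leading record 50.3%. With at least 2 copies required of every tag, the tRNA share was 1.13% of copies and 14.0% of tags, and the 10 leading tags held 57.3%. Without the most abundant tRNA tag, the tRNA share was 1.10% of copies, the 10 leading tags held 44.0%, the leading record 62.9%, and 20.2% of copies began with G. With only tags on the tRNA strand of the joined stretches, an alternative chosen after seeing the data, the tRNA share was 1.22% of copies and 10.8% of tags, and the 10 leading tags held 52.3%. Requiring a record with a plus sign changed none of the 5 values, because all 694 members had such a record. Of the 11 values within the interval, 5 were therefore fixed in advance. The alternative that keeps only tags whose records are all tRNA left no tag, because all 694 also match an unclassified record. Joining by words of 16 or 20 bases placed the same number of copies, and words of 24 bases placed 99.4%, all 3 lengths being chosen after seeing the data. Ala and Ile were the only amino acids decoded each time, with Ile found in 2 pairs at 16 and 24 bases. The Ile share of copies on the stretches was 56.8% among members and 48.7% with all listed tags there. No paired analysis was possible because there is 1 pooled library. Single-copy tags limit what can be said of any position outside the leading sites.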
